A study of Mus musculus with 9 samples.

Results

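Of the 36410 genes counted in 3 striatal cell lines, 8 make up the REST, BDNF and neurotrophin receptor group described here. They are Rest and its cofactor Rcor1, the ligands Bdnf and Ntf3, and the receptors Ngfr, Ntrk2, Ntrk3 and Sort1, taken from the count table by symbol. Each had exactly 1 row. Poly(A) mRNA was sequenced from 9 libraries of immortalized mouse striatal cells, 3 libraries from each line. Control cells (STHdhQ7/Q7) carry 7 glutamine repeats on both Hdh alleles, HD-het cells (STHdhQ7/Q111) carry 7 on 1 allele and 111 on the other, and HD-homo cells (STHdhQ111/Q111) carry 111 on both. All 3 lines come from striatum of knockin or wild-type mouse embryos, are labelled as C57/BL6, were immortalized and received no treatment. Since there is 1 line per genotype, effects of the genotype cannot be told apart from other differences between the lines. The labels do not say whether the 3 libraries of a line are separate cultures, so p-values measure the spread between libraries, which may be technical.

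REST is a zinc finger repressor that binds RE1 elements and recruits the CoREST complex, whose scaffold is RCOR1, to keep neuronal genes silent. Normal huntingtin is known to hold REST in the cytoplasm of neurons, and Bdnf is among the genes that REST represses. BDNF is the main survival factor of striatal neurons, which receive most of it from cortical axons. Mature BDNF signals through TrkB (Ntrk2) and NT-3 (Ntf3) through TrkC (Ntrk3), whereas the uncleaved proneurotrophins bind p75NTR (Ngfr) together with sortilin (Sort1).

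Counts are given as normalized counts per megaread (CPM, normalized by TMM) with the SD of 3 libraries. Library totals lay between 29507665 and 41197931 counts, and the floor of 3 counts taken as the smallest that shows a gene corresponded to 0.0710 to 0.101 CPM, for counting error only. Lines were compared by edgeR's two-sided quasi-likelihood test over 13508 genes with Benjamini-Hochberg adjustment, and an adjusted p under 0.05 is called a change. The lines differed over much of the transcriptome: 65.1% of tested genes were called in HD-het against control cells, 58.6% in HD-homo against control cells and 71.6% in HD-homo against HD-het cells. HD-homo replicate 2 was the deepest library and stood apart for several of these genes. It was 1.39 times the mean of HD-homo replicates 1 and 3 for Rest, 1.26 times for Bdnf and 2.04 times for Sort1. Both HD lines were compared with the same control libraries.

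Of the 8 genes, 6 passed the filter on low counts. Ntf3 and Ngfr did not, and Ntrk3 passed only through the HD-homo line, where it was highest. In each of the 3 comparisons 3 of the 6 were called, against the shares of all genes given above. In HD-het against control cells Bdnf, Ntrk3 and Sort1 rose and none fell, where 33.8% of all tested genes rose and 31.4% fell. In HD-homo against control cells Bdnf and Ntrk3 rose and Sort1 fell, where 29.6% of all tested genes rose and 28.9% fell. Between the HD lines, Ntrk3 was higher and Rcor1 and Sort1 were lower in HD-homo cells, where 36.0% of all tested genes were higher and 35.6% lower. The numbers of the 6 whose libraries did not overlap were 3 in HD-het against control, 4 in HD-homo against control and 2 between the HD lines, and over all tested genes these shares were 74.0%, 65.3% and 72.8%.

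**Figure D1:**
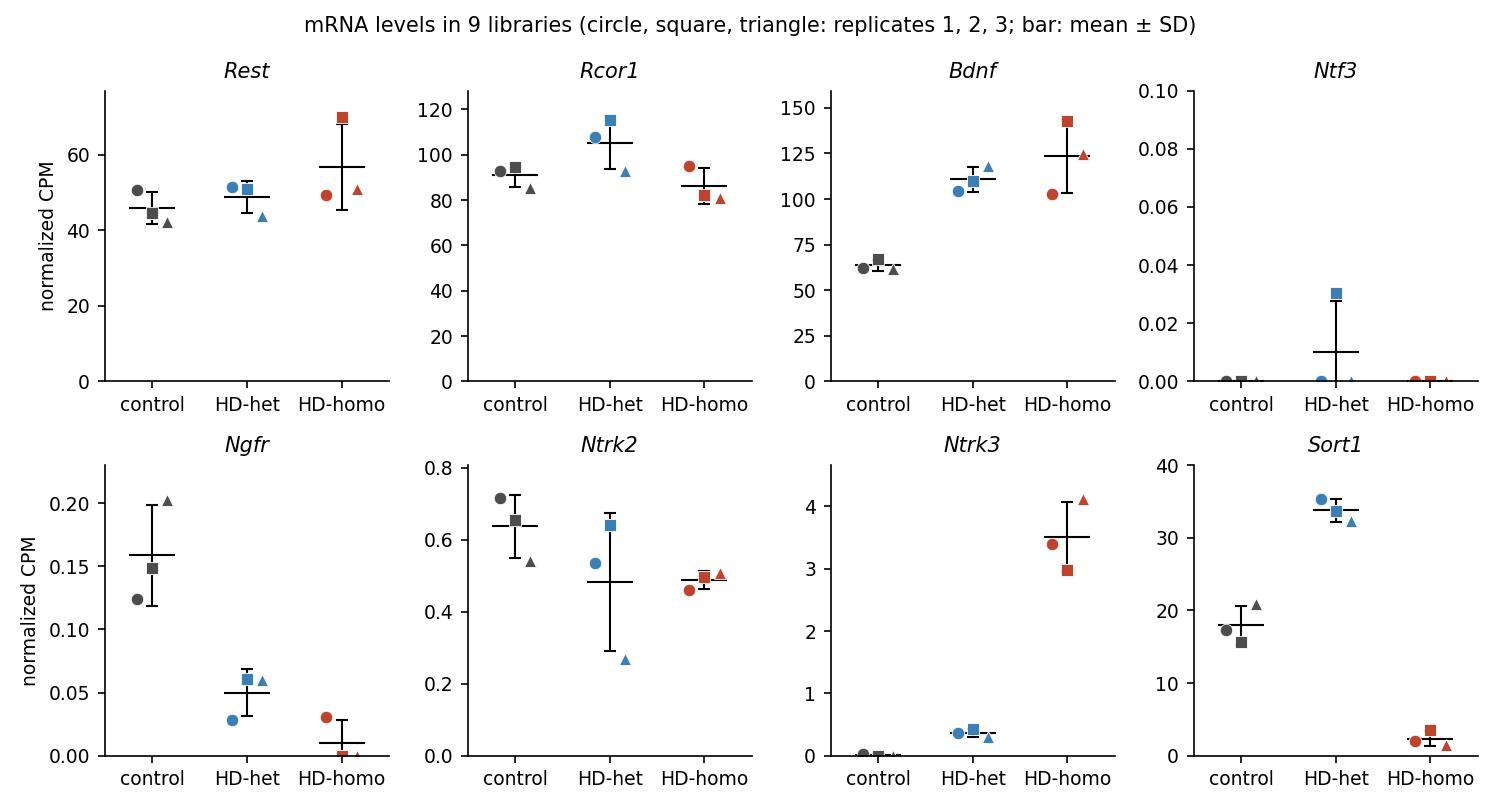
Normalized CPM of the 8 genes (vertical axes, each from 0) in the 3 lines, with 1 point per library (circle, square and triangle for replicates 1, 2 and 3) and bars for the mean ± SD of 3 libraries. Bdnf lay higher in all 6 HD libraries than in all 3 control libraries, Sort1 was highest in HD-het and lowest in HD-homo cells, and Ntf3, Ngfr and Ntrk2 lay below 1 CPM throughout.

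The Bdnf gene has several promoters, and the gene-level count pools the transcripts from all of them. RefSeq (GRCm38.p6) lists 7 start sites for Bdnf, each with a window of which the 250 bases upstream were read. Matches were found in 2 of the 7, and these are shown because Bdnf mRNA rose in both HD lines. The first lies at chr2:109674450-109674699 and the other at chr2:109692186-109692435, both on the plus strand, and the capitals mark the letters CACGT of upstream stimulatory factor or, on either strand, the CREB letters TGACG.

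Bdnf, first start site: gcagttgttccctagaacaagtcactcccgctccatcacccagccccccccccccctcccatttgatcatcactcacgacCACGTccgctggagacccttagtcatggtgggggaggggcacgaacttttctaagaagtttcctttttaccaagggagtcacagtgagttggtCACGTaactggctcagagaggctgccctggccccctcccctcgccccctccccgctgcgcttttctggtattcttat
Bdnf, start site at 109692436: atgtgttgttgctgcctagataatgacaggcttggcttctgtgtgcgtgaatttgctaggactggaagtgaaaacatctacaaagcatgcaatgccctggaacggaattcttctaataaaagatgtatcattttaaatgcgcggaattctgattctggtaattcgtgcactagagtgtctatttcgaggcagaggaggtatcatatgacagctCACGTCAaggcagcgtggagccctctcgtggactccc

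Both strands were searched. Among 32851 promoter windows of the same length, the CREB core TGACG was found in 17.8% and the full CREB site TGACGTCA in 1.55%. The upstream stimulatory factor core CACGT was in 16.6%, the whole E-box CACGTG in 6.02% and the TATA box TATAAA in 12.4%. Of the RE1, the left piece TTCAGCACC was in 0.301% and the right piece GGACAGC in 5.28%. The second window shown holds the factor's core and the reverse complement of the CREB core in 1 overlapping run. Neither piece of the RE1, nor the TATA box, the whole E-box or the full CREB site, was among the letters of any of the 7 windows. Only exact letters in the bases upstream of each start site were searched. An RE1 outside these windows, or with other letters, could not be found, so the search does not show whether Bdnf has an RE1. Which start sites gave the Bdnf counts was not measured. The letters were not particular to Bdnf among these genes: the Rcor1 window held TGACG, and windows of Ngfr and Ntf3 held CACGT. None of those genes was called higher in an HD line than in control cells.

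Rest, the repressor itself (chr5:77265491-77286432, plus strand, GRCm38), was expressed in every library. Its level was 50.6, 44.8 and 42.3 CPM in control replicates 1 to 3, 51.5, 51.1 and 43.9 CPM in HD-het and 49.5, 69.9 and 50.9 CPM in HD-homo cells. The 3 lines overlapped, and HD-homo replicate 2 alone lay above all the others. The means were 45.9 ± 4.29 CPM in control, 48.8 ± 4.24 CPM in HD-het and 56.8 ± 11.4 CPM in HD-homo cells (SD, n = 3 each). The HD-homo difference did not pass the test (log2 fold change 0.31, SE 0.13, 95% interval 0.03 to 0.59, edgeR adjusted p = 0.0576), nor did the HD-het difference (log2 fold change 0.09, edgeR adjusted p = 0.558). The first rests on single libraries. Without HD-homo replicate 2 it was 0.13 (edgeR adjusted p = 0.252), whereas without control replicate 1 it was 0.38 (edgeR adjusted p = 0.0476), without HD-homo replicate 1 it was 0.40 (edgeR adjusted p = 0.0268) and without HD-homo replicate 3 it was 0.38 (edgeR adjusted p = 0.0303).

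Rcor1, the CoREST scaffold that links REST to histone demethylase and deacetylase enzymes (chr12:111039351-111115901, plus strand), had in control cells the highest level per length of the 8 genes, 15.996 CPM per kilobase of annotated exon. Its level per library was 93.0, 94.6 and 85.2 CPM in control, 107.8, 115.4 and 92.7 CPM in HD-het and 95.1, 82.2 and 80.7 CPM in HD-homo cells. Every pair of lines overlapped in at least 1 library. Between the HD lines, Rcor1 was lower in HD-homo cells (86.0 ± 7.90 against 105.3 ± 11.6 CPM in HD-het cells, log2 fold change -0.29, SE 0.09, edgeR adjusted p = 0.0124). That call was lost without HD-het replicate 2 (-0.22, edgeR adjusted p = 0.0568). Against control cells (90.9 ± 5.05 CPM) the log2 difference was 0.21 in HD-het (edgeR adjusted p = 0.0577) and -0.08 in HD-homo cells (edgeR adjusted p = 0.466). The HD-het difference passed the test without HD-het replicate 3 (0.30, edgeR adjusted p = 0.0099) and, with its size at 0.21, without HD-homo replicate 1 (edgeR adjusted p = 0.0418) or replicate 3 (edgeR adjusted p = 0.0469).

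Around these genes, all 19 genes of a list of REST and its corepressor complexes were expressed and tested. In HD-homo against control cells 6 rose, 7 fell and 6 were not called, with a median log2 change of -0.08 beside 0.01 over all tested genes. In HD-het against control cells 6 rose, 3 fell and 10 were not called, with a median of 0.03 beside 0.03. Over all tested genes, 33.8% rose and 31.4% fell in HD-het and 29.6% rose and 28.9% fell in HD-homo cells. Both HD lines had more mRNA of Kdm1a, the histone demethylase LSD1 held by RCOR1 (123.1 ± 2.63 CPM in control, 161.2 ± 6.10 in HD-het and 169.2 ± 12.5 in HD-homo cells, edgeR adjusted p = 0.000214 and 7.55e-05). Rcor2, a CoREST paralog, fell in both, from 20.5 ± 1.56 to 9.47 ± 0.300 CPM in HD-het (edgeR adjusted p = 5.45e-05) and 14.6 ± 3.65 CPM in HD-homo cells (edgeR adjusted p = 0.0119). Rcor3 rose in HD-het cells, from 14.0 ± 1.52 to 26.4 ± 0.207 CPM (edgeR adjusted p = 3.06e-06), and stood at 12.5 ± 0.376 CPM in HD-homo cells (log2 fold change -0.17, edgeR adjusted p = 0.109; without control replicate 1, -0.24 and 0.0423). The deacetylase Hdac1 and the scaffold Sin3b rose in HD-homo cells (log2 fold changes 0.33 and 0.38), while the demethylase Kdm5c, the methyltransferase Ehmt2 and the BRAF35 subunit Hmg20b fell (-0.51, -0.42 and -0.40). No gene of the list was at or near 0 in any line.

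Among 9 regulators of REST stability, splicing and localization, 3 rose and 4 fell in HD-het cells and 1 rose and 2 fell in HD-homo cells. The shares of all tested genes that rose and fell were 33.8% and 31.4% in HD-het and 29.6% and 28.9% in HD-homo cells. Srrm4, the neuronal splicing factor that makes the truncated REST4 form, had 55, 57 and 54 counts in control, 5, 1 and 3 in HD-het and 1, 0 and 0 in HD-homo cells. The control libraries lay at 1.74 ± 0.0713 CPM, and those of both HD lines were near or under the floor. The ratio of summed counts, control over HD-het, was 19.7 (95% counting interval 10.1 to 43.8), and control over HD-homo was 188.7 (33.4 to 7497), with edgeR adjusted p = 1.8e-06 and 4.05e-07. The single HD-homo read of Srrm4 came from replicate 1, and without that library none was left and the call against control held (edgeR adjusted p = 4.67e-06). Prickle1, which is known to interact with REST, rose from 0.505 ± 0.205 CPM in control to 2.08 ± 0.194 in HD-het and 2.87 ± 0.217 in HD-homo cells (edgeR adjusted p = 2.55e-05 and 4.24e-06). The deubiquitinase Usp7 fell in both HD lines (log2 fold changes -0.39 and -0.18).

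Bdnf was the one ligand of the 8 genes with mRNA above the floor in every library (chr2:109674700-109727007, plus strand, 11 annotated transcripts). It reached 62.2, 67.3 and 61.4 CPM in control cells, 104.5, 109.8 and 118.2 CPM in HD-het cells and 102.6, 142.8 and 124.8 CPM in HD-homo cells. All 6 HD libraries lay above all 3 control libraries, and the HD lines overlapped each other. Bdnf mRNA was thus 1.74-fold higher in HD-het (63.6 ± 3.21 against 110.9 ± 6.90 CPM, log2 fold change 0.80, SE 0.10, edgeR adjusted p = 4.6e-05) and 1.94-fold higher in HD-homo cells (123.4 ± 20.1 CPM, log2 fold change 0.96, SE 0.10, edgeR adjusted p = 1.3e-05). The HD lines differed from each other by 0.16 (95% interval -0.07 to 0.38, edgeR adjusted p = 0.194), and by 0.27 without HD-homo replicate 1 (edgeR adjusted p = 0.0115). Without HD-homo replicate 2 the HD-homo increase over control was 0.84 (edgeR adjusted p = 1.27e-05). An antisense gene, Gm45346, shares 896 exonic bases with Bdnf on the opposite strand and has no row in the table. The library kit marks strand, but the strand setting of the counting is not given in the sources used here, so reads of the antisense gene may be included.

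Ntf3, which encodes NT-3, the ligand of TrkC (chr6:126101412-126166910, minus strand), gave 1 read in 1 HD-het library and none in the other 8 libraries. It was not detectable at this depth in any line. A wider list of 11 neurotrophins and receptors was taken for the genes around these. Ntf5, which encodes the TrkB ligand NT-4/5, had 4, 4 and 9 counts in control and 12, 35 and 18 counts in HD-homo cells, and rose (log2 fold change 1.70, SE 0.43, edgeR adjusted p = 0.00519). HD-homo replicate 2 alone held 35 of the 65 HD-homo counts. All control counts of Ntf5 lay under the minimum count of the filter, so it passed mainly through the HD libraries, where it was higher. The adjusted p-value of this rise therefore adds little evidence separate from the counts. The 9 to 13 counts of Ntf5 in HD-het cells did not pass the test against control (log2 fold change 0.85, edgeR adjusted p = 0.139), but did without control replicate 3 (1.39, edgeR adjusted p = 0.0455).

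**Figure D2:**
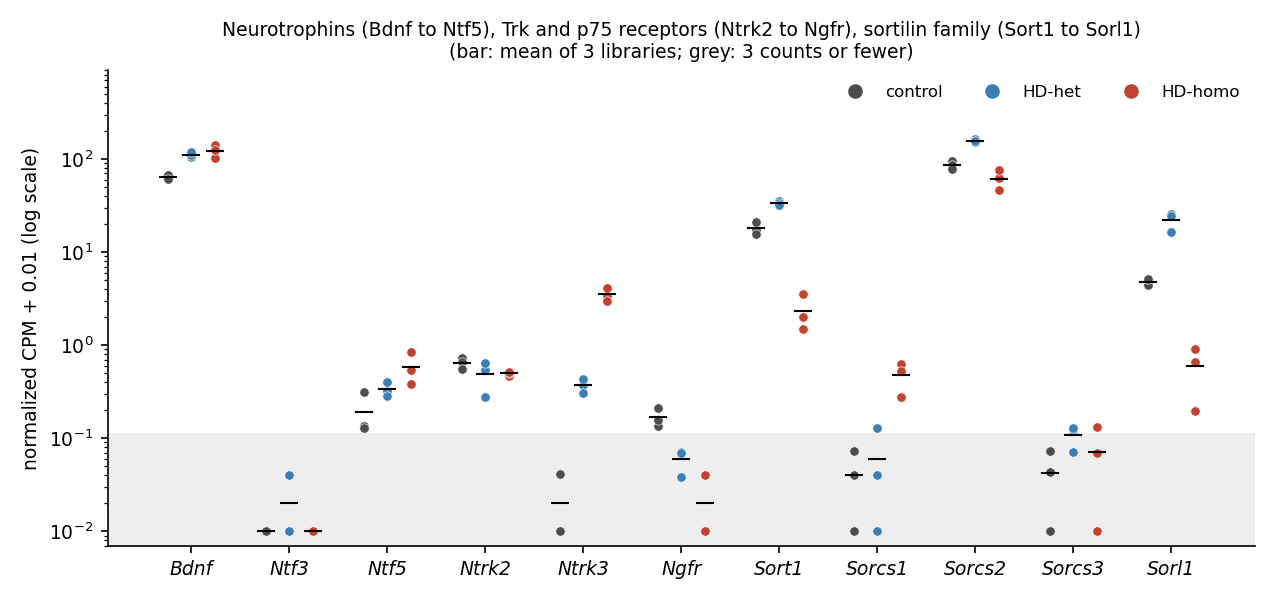
Normalized CPM + 0.01 on a log axis for 11 neurotrophins and receptors (horizontal axis), with 1 point per library, coloured by line, and bars for the mean of 3 libraries; the grey band marks 3 counts or fewer. The ligand Bdnf lies between 61.4 and 142.8 CPM, whereas Ntrk2 and Ntrk3 lie at or below 4.12 CPM and Ngfr lies near the grey band.

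The Trk receptors Ntrk2 and Ntrk3 were low in all lines. Ntrk2, the TrkB receptor for BDNF (chr13:58806569-59133970, plus strand), had 23, 22 and 16 counts in control, 19, 21 and 9 in HD-het and 15, 21 and 17 in HD-homo cells. On the CPM scale the control libraries (0.541 to 0.715 CPM) all lay above the HD-homo libraries (0.460 to 0.507 CPM) and overlapped the HD-het libraries (0.270 to 0.640 CPM). No comparison passed the test. The log2 difference from control was -0.38 in HD-homo (95% interval -1.03 to 0.26, edgeR adjusted p = 0.282) and -0.40 in HD-het cells (-1.06 to 0.25, edgeR adjusted p = 0.25), so that at this depth neither a halving nor no change was outside the interval. On the scale of CPM per kilobase of annotated exon, the level of Ntrk2 in control cells was 0.0330, against 10.2 for Bdnf, 6.35 for Rest and 2.37 for Sort1.

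Ntrk3, the TrkC receptor for NT-3 (chr7:78175959-78738012, minus strand, 20 annotated transcripts), differed between all 3 lines. It had 1, 0 and 0 counts in control, 13, 14 and 10 in HD-het and 111, 126 and 138 in HD-homo cells. No library of one line overlapped with those of another, and the level was at or under the floor in control, 0.364 ± 0.0637 CPM in HD-het and 3.50 ± 0.572 CPM in HD-homo cells. Since all control libraries together held 1 read, the ratio of summed counts is given with its 95% counting interval, 34.7 (5.85 to 1407) for HD-het and 329.9 (58.9 to 13066) for HD-homo over control cells. Ntrk3 rose in both HD lines by the test (edgeR adjusted p = 8.5e-05 and 4.3e-08), and the HD-homo level was 9.61-fold that of HD-het cells (log2 fold change 3.25, SE 0.25, edgeR adjusted p = 4.1e-07). It passed the filter on low counts only through the HD-homo line, where it was highest. The adjusted p-values of Ntrk3 therefore add no evidence separate from its counts. The only control read came from replicate 1. Without that library the fitted log2 change, which then depends on the prior count, was 9.90 in place of 7.95 for HD-homo and 6.65 in place of 4.70 for HD-het cells (edgeR adjusted p = 1.16e-06 and 0.000298).

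Ngfr, the p75NTR receptor (chr11:95568818-95587735, minus strand), had 4, 5 and 6 counts in control cells, 1, 2 and 2 in HD-het cells and 1, 0 and 0 in HD-homo cells. Only the control libraries exceeded the floor of 3 counts, and they lay above all 6 HD libraries. The exact two-sided permutation test of 3 libraries against 3 gave p = 0.1 for each HD line against control, the smallest that it can give, and p = 0.2 between the HD lines. The ratio of summed counts, control over HD-het, was 3.20 (95% counting interval 1.105 to 11.2), and control over HD-homo was 17.0 (2.62 to 717.7).

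Sort1, the sortilin that sorts proBDNF and forms a receptor with p75NTR (chr3:108284082-108361511, plus strand), changed in opposite directions in the HD lines. It stood at 17.3, 15.7 and 20.9 CPM in control, 35.4, 33.6 and 32.3 CPM in HD-het and 1.99, 3.55 and 1.49 CPM in HD-homo cells. No library of one line overlapped with those of another. Sort1 was 1.88-fold higher in HD-het than in control cells (33.8 ± 1.54 against 18.0 ± 2.65 CPM, log2 fold change 0.91, SE 0.19, edgeR adjusted p = 0.00118) and 7.65-fold lower in HD-homo cells (2.35 ± 1.07 CPM, log2 fold change -2.90, SE 0.23, edgeR adjusted p = 8e-07). The HD-homo level was 14.4-fold below the HD-het level (log2 fold change -3.81, SE 0.22, edgeR adjusted p = 5.2e-08). HD-homo replicate 2 held 150 of the 265 HD-homo counts, and without it the change from control was -3.36 (edgeR adjusted p = 3.08e-08). An antisense gene, Gm12523, shares 338 exonic bases with Sort1 and has no row in the table, so its reads may likewise be included.

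**Figure D3:**
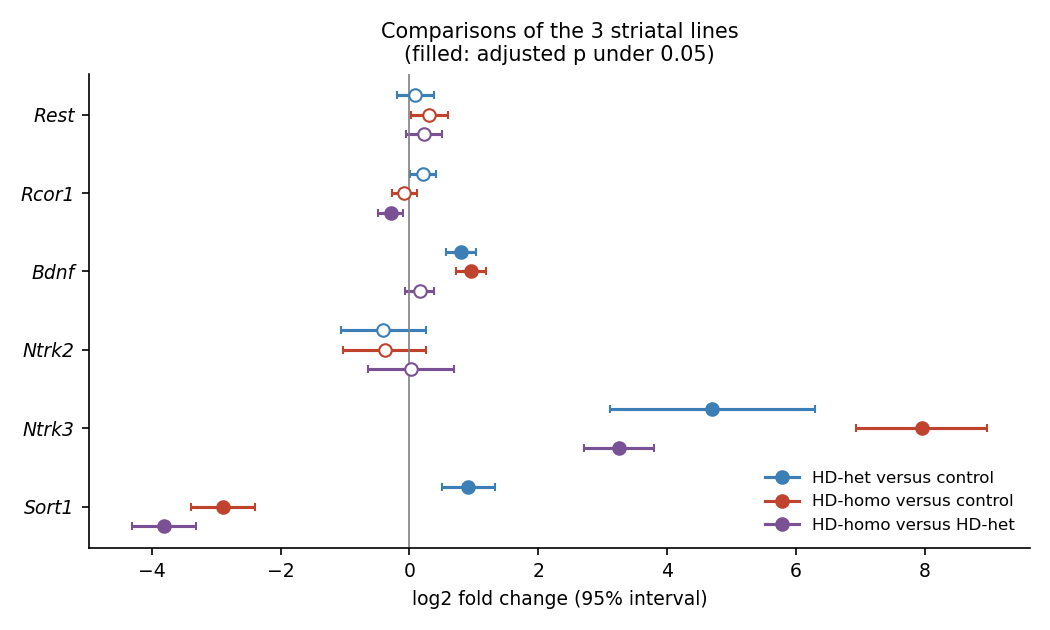
Log2 fold changes (horizontal axis, with 95% intervals) of the 6 tested genes in the 3 comparisons of lines, with filled points for adjusted p under 0.05. Bdnf lies near 0.80 and 0.96 against control cells, Sort1 lies at 0.91 in HD-het and -2.90 in HD-homo cells, and the intervals of Ntrk2 include 0 in all comparisons.

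Of the other 4 receptors of the sortilin family, Sorl1 and Sorcs2 had the order of Sort1 over the lines and Sorcs1 and Sorcs3 did not. Sorl1, the sorting receptor SorLA, stood at 4.80 ± 0.341 CPM in control, 22.3 ± 5.10 in HD-het and 0.580 ± 0.364 in HD-homo cells, which is 4.64-fold higher and 8.27-fold lower than control (edgeR adjusted p = 1.08e-05 and 1.61e-05). Sorcs2, a partner of p75NTR in proBDNF signalling, stood at 86.6 ± 8.80, 157.9 ± 5.81 and 61.7 ± 15.1 CPM (edgeR adjusted p = 0.000266 in HD-het and 0.0124 in HD-homo against control cells). The HD-homo call of Sorcs2 was lost without control replicate 1 (log2 fold change -0.42, edgeR adjusted p = 0.0519). Sorcs1 had 3 summed counts in control, 5 in HD-het and 51 in HD-homo cells, a ratio of HD-homo over control of 15.0 (95% counting interval 4.84 to 74.9). Sorcs3 had 3, 10 and 6 summed counts in that order of lines. Both stayed below 1 CPM, did not pass the filter and were not tested. Over the 7 tested genes of the 11 neurotrophins and receptors, 5 rose and 0 fell in HD-het cells and 3 rose and 3 fell in HD-homo cells, with median log2 changes of 0.87 and -0.38. By edgeR at an unadjusted p under 0.05 and by DESeq2, 0 of the 7 fell in HD-het cells as well. The 2 uncalled genes there were Ntf5 and Ntrk2. Ngfr, with 4, 5 and 6 counts in control and 1, 2 and 2 in HD-het cells, was lower there but not among the 7. Bdnf, Ntrk3 and Sort1 are among the 5 that rose. For all tested genes the shares that rose and fell were 33.8% and 31.4% in HD-het and 29.6% and 28.9% in HD-homo cells.

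Genes that regulate, process and carry BDNF were taken as a list of 18, of which 15 were tested. In HD-het cells 6 rose and 6 fell, where 33.8% of all tested genes rose and 31.4% fell. In HD-homo cells 4 rose and 5 fell, where 29.6% of all tested genes rose and 28.9% fell. Htt, whose normal product promotes Bdnf transcription and the transport of BDNF vesicles, fell from 99.97 ± 6.00 CPM in control to 62.3 ± 1.51 CPM in HD-het and 20.2 ± 1.29 CPM in HD-homo cells, 1.60-fold and 4.95-fold lower (edgeR adjusted p = 4.39e-06 and 3.42e-10). Htt is the gene that carries the repeats, and no library of one line overlapped with those of another. Kif5c, a kinesin heavy chain that moves vesicles along axons, had 1704, 1786 and 1314 counts in control, 1680, 1635 and 1232 in HD-het and 19, 48 and 16 in HD-homo cells. Against control cells its HD-homo level was 68.5-fold lower (edgeR adjusted p = 1.69e-09), and its log2 difference in HD-het cells was -0.17 (edgeR adjusted p = 0.342). Mmp2, a secreted metalloproteinase, rose from 15.4 ± 0.952 CPM to 34.0 ± 3.26 in HD-het and 153.1 ± 18.3 in HD-homo cells (edgeR adjusted p = 2.71e-06 and 4.97e-10). Crtc1, a CREB coactivator, rose in HD-homo cells (log2 fold change 0.28). Its decrease in HD-het cells (-0.23, edgeR adjusted p = 0.0212) lost its call without control replicate 1 (-0.20, edgeR adjusted p = 0.0744), control replicate 2 (-0.21, edgeR adjusted p = 0.0677) or HD-het replicate 3 (-0.17, edgeR adjusted p = 0.0779).

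Of 33 neuronal genes with RE1 sites, the textbook targets of REST, 15 were tested. In each HD line 8 rose and 2 fell against control cells, with median log2 changes of 0.29 in HD-het and 0.48 in HD-homo cells. Beside these, 33.8% of all tested genes rose and 31.4% fell in HD-het cells, and 29.6% and 28.9% in HD-homo cells. Much of the list was silent: 18 genes in control and 14 in each HD line had a mean under 0.1 CPM, among them Calb1, Glra1, Oprm1 and Crh with no read in any library. Scn2a, a neuronal sodium channel, came next to Ntrk3 in the size of its HD-homo increase. It went from 0.0735 ± 0.0177 CPM in control to 2.55 ± 0.334 in HD-het and 1.90 ± 0.532 in HD-homo cells (edgeR adjusted p = 5.12e-07 and 1.02e-06). Its older symbol, Scn2a1, has a row of its own with 374 reads, so that reads of this gene may be split. Stmn2, a growth cone protein, fell in both HD lines, from 53.7 ± 6.63 CPM in control to 2.71 ± 0.253 in HD-het and 2.75 ± 0.575 in HD-homo cells (edgeR adjusted p = 2.68e-09 and 9.77e-10). Syn1, the synaptic vesicle protein synapsin I, fell in HD-homo cells (3.97 ± 0.220 to 1.18 ± 0.254 CPM, edgeR adjusted p = 1.04e-05) and stood at 4.09 ± 0.646 CPM in HD-het cells (edgeR adjusted p = 0.832). Vgf, a neuropeptide precursor that BDNF is known to induce and which was chosen after its values were seen, rose 10.5-fold in HD-homo cells. Its HD-homo libraries spread from 7.93 to 34.2 CPM, above 1.69 to 1.71 CPM in control and 0.884 to 1.21 CPM in HD-het cells (edgeR adjusted p = 0.000135 against control). HD-homo replicate 3 carried the highest value, and without it the fold was 5.64 (edgeR adjusted p = 5.17e-07).

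Of 28 genes of Trk signal transduction 12 rose and 6 fell in HD-het cells and 9 rose and 10 fell in HD-homo cells. The all-gene shares that rose and fell were 33.8% and 31.4% in HD-het and 29.6% and 28.9% in HD-homo cells. Among the called genes of that list that reached 1 CPM in either line, the adaptor Shc2 came after Ntrk3 in the size of its HD-homo increase (0.541 ± 0.108 to 2.17 ± 0.384 CPM, edgeR adjusted p = 2.27e-05), and the exchange factor Sos1 and the PI3-kinase subunit Pik3r1 had the largest decreases (log2 fold changes -0.79 and -0.53). Below that level, the neuronal adaptor Shc3 fell further, with 5, 9 and 10 counts in control, 14, 8 and 14 in HD-het and 0, 1 and 2 in HD-homo cells (ratio of summed counts, control over HD-homo, 9.09, 95% counting interval 2.76 to 47.2, edgeR adjusted p = 0.00226). Shc3 was named after its values were seen. Of 15 tested p75NTR adaptors and coreceptors 6 rose and 4 fell in HD-het cells and 3 rose and 7 fell in HD-homo cells, beside the same all-gene shares. Bex1, a p75NTR-interacting protein, stood at 9.01 ± 0.704 CPM in control and 6.11 ± 0.902 in HD-het cells and had no read in HD-homo cells, at least 107-fold lower than control against the floor of 3 counts per library. Lingo1, a partner of p75NTR in the Nogo receptor complex, rose in HD-het and fell in HD-homo cells (log2 fold changes 0.88 and -1.43), and Rtn4r, the Nogo receptor, rose in HD-homo cells (0.530 ± 0.124 to 2.88 ± 1.49 CPM, edgeR adjusted p = 0.000159). Maged1, a p75NTR-binding protein, rose in both HD lines (log2 fold changes 0.74 in HD-het and 0.50 in HD-homo cells).

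Of 14 immediate early and feedback genes that Trk signalling can induce, 7 rose and 3 fell in HD-het cells and 5 rose and 4 fell in HD-homo cells. Among all tested genes 33.8% rose and 31.4% fell in HD-het and 29.6% rose and 28.9% fell in HD-homo cells. Several moved apart in the HD lines. Arc, a synaptic plasticity gene, had 88.4, 84.2 and 74.2 CPM in control, 28.3, 23.3 and 13.0 CPM in HD-het and 165.1, 199.7 and 323.7 CPM in HD-homo cells (edgeR adjusted p = 0.0001 and 0.000592 against control). Npas4, an activity-dependent transcription factor that binds Bdnf promoters in neurons, had the reverse order, with 3.24 ± 0.453 CPM in control, 19.7 ± 4.71 CPM in HD-het and 0.486 ± 0.148 CPM in HD-homo cells (edgeR adjusted p = 7.46e-07 and 8.02e-06 against control). Spry1, a feedback inhibitor of receptor tyrosine kinases, followed that order too (9.63 ± 1.19, 22.3 ± 0.565 and 2.44 ± 0.799 CPM, edgeR adjusted p = 4.43e-05 and 3.42e-06). Egr2 rose in both HD lines (log2 fold changes 1.95 and 1.56).

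**Figure D4:**
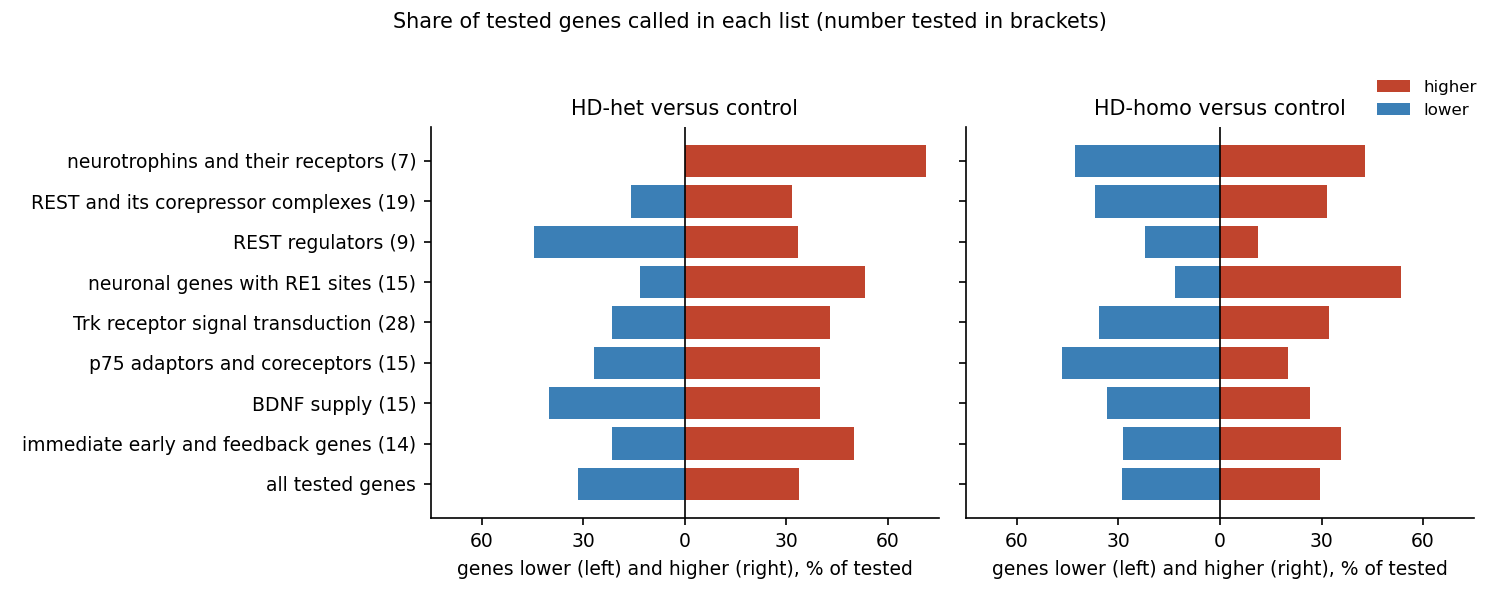
Share of tested genes (horizontal axis, % of tested) that were lower (left of 0) or higher (right of 0) than in control cells in 8 gene lists and over all tested genes, in HD-het cells (left) and HD-homo cells (right), with the number tested in brackets. Neurotrophins and their receptors have 5 genes higher and 0 lower in HD-het cells and 3 higher and 3 lower in HD-homo cells, and over all genes the shares are 33.8% and 31.4% in HD-het and 29.6% and 28.9% in HD-homo cells.

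The cells were checked against markers of the striatum. Of 11 striatal projection neuron genes, 5 had a mean under 0.1 CPM in every line, and Drd1, the dopamine receptor of direct pathway neurons, had no read in any library. The summed level of that list was 91.7 to 102.6 CPM in control, 119.9 to 122.1 CPM in HD-het and 163.4 to 184.9 CPM in HD-homo libraries. Most of it was Foxp1 alone, with 87.9 to 97.7, 112.9 to 115.8 and 158.8 to 179.1 CPM, so the sum does not speak for the other genes. Of 5 neural progenitor genes, 4 fell and 1 rose in HD-homo against control cells, and 3 rose and 2 fell in HD-het cells. For the marker counts, the all-gene shares that rose and fell were 29.6% and 28.9% in HD-homo and 33.8% and 31.4% in HD-het cells. The summed level of the 5 progenitor genes was 5894 to 6357, 5323 to 5828 and 4158 to 4576 CPM in the 3 lines, most of it the intermediate filament gene Vim. Nes, which encodes nestin, stood at 526.3 ± 34.6, 839.5 ± 18.1 and 28.4 ± 6.52 CPM, and Pax6, a progenitor transcription factor, at 32.1 ± 0.605, 48.2 ± 1.23 and 0.132 ± 0.0327 CPM. These 2 had the order of lines of Sort1, and the other 3 did not. Sox2 stood at 128.1 ± 11.2, 82.9 ± 3.31 and 5.48 ± 0.436 CPM, Vim at 5383 ± 273.4, 4568 ± 272.2 and 4264 ± 238.7 CPM, and Fabp7 at 0.396 ± 0.0831, 8.23 ± 0.962 and 1.01 ± 0.601 CPM. The HD-homo call of Fabp7 was lost without control replicate 3 (log2 fold change 1.18, edgeR adjusted p = 0.055), and the HD-het call of Vim was lost without control replicate 3 (-0.20, edgeR adjusted p = 0.059), HD-het replicate 1 (-0.22, edgeR adjusted p = 0.0512) or HD-het replicate 2 (-0.20, edgeR adjusted p = 0.0628). Of 6 tested fibroblast and pericyte genes, 5 rose and 0 fell in HD-homo cells (0 also by DESeq2 and by edgeR at an unadjusted p under 0.05) and 3 rose and 2 fell in HD-het cells. The summed levels of that list were 2569 to 3475 CPM in control, 7865 to 9103 in HD-het and 6496 to 7017 in HD-homo libraries. Most of each sum was Col1a1 alone, with 2027 to 2733, 6329 to 7791 and 4075 to 4493 CPM, so the sums do not speak for the other genes. Pdgfra, the receptor that marks fibroblasts and glial progenitors, rose from 5.21 ± 0.880 CPM in control to 306.6 ± 5.22 CPM in HD-homo cells and stood at 4.38 ± 0.777 CPM in HD-het cells. The part of these marker differences in the changes of Sort1, Ntrk3 and Bdnf was not tested, and in bulk RNA fewer cells with a transcript cannot be told apart from less of it per cell.

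The genes with the pattern most like each of the 6 tested genes were found by the root mean square difference of centred log2 CPM over the 9 libraries, among 12015 or 12016 genes with a mean of at least 1 CPM. Smaller values mean more alike. Rest was nearest to Mob3c (0.05), Hivep1 (0.08) and Tmem176a (0.08), beside a median over all compared genes of 0.34. Bdnf was nearest to Tpmt (0.07), D3Ertd751e (0.08) and Vgll3 (0.09), beside 0.53. Rcor1 was nearest to Atxn2, Med14 and Dvl3 (0.06, 0.06 and 0.07, beside 0.32). Sort1 was nearest to the polysialyltransferase gene St8sia2 (0.20), Tspan7 (0.24) and Igsf9 (0.28), beside 1.74. Ntrk3 was nearest to the netrin receptor gene Unc5c (0.55), Irf7 (0.64) and Medag (0.65), beside 3.25, and Ntrk2 to Lurap1, Cdh13 and Castor2 (0.14, 0.21 and 0.23, beside 0.47). These are descriptions of likeness over 3 lines and carry no test.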

How the data were processed

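Per the labels, poly(A) RNA of 9 samples was made into libraries with a directional kit. The deposited values are raw read counts per gene symbol, which the authors left unnormalized and unpooled. The submitters' processing notes name cutadapt, Bowtie 1.1.2, RSEM 1.3.0, DESeq2 and the builds GRCm38.p5 and mm10. The strand setting of the counting and the annotation are not given in the sources used here.

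From the counts, genes were filtered by filterByExpr (minimum count 10) of edgeR 4.0.16 in R 4.3.3, normalized by TMM (factors 0.984 to 1.03) and fitted with 1 mean per line over 9 libraries. Quasi-likelihood tests were adjusted by Benjamini-Hochberg over 13508 genes, with a threshold of 0.05. Totals were 29507665 to 41197931 counts. Intervals on count ratios are exact (Clopper-Pearson, 95%) and cover counting error only. No 2 replicates agreed within sampling noise: their variance was 2.20 to 39.2 times that of counting.

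The 8 genes and all gene lists were chosen with earlier results of these data known. Some genes of the lists are not reported here and were left out of the lists' counts. From each list, the text names at most the 2 largest increases and 2 largest decreases called in HD-homo against control cells where the higher line had 1 CPM or more, any gene of the neurotrophin and REST complex lists, and marker genes.

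Positions and exonic lengths come from GENCODE M21 (GRCm38). Less than 1% of 50-base words of any of the 8 genes occurred in other genes (0 to 0.824%). RefSeq promoter windows were matched by symbol for 5 of 8 genes.

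In simulated data on 13327 genes for HD-homo against control, 87 of 100 genes changed 2-fold and 95 of 100 changed 4-fold were recovered, and 11 of 193 calls were false. Only these genes were changed, and only in HD-homo cells. Far more genes differ in the real data, so these rates may not carry over to them. The alternatives were size factors of DESeq2, library totals, the Wald test of DESeq2 1.42.0, other filters, 2 lines only, a replicate block, a prior count of 2, stricter calls and leaving out each library.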

Additional observations from a re-analysis of the deposited data

Results flagged for a closer look

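The change of Ntrk3 against control cells differed between the HD lines. The HD-homo change exceeded the HD-het change by 3.25 on the log2 scale (SE 0.25, edgeR adjusted p = 4.1e-07), with 111 to 138 counts in HD-homo and 10 to 14 in HD-het libraries.

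The change of Sort1 differed too and ran in opposite directions, up in all 3 HD-het and down in all 3 HD-homo libraries. The HD-homo change minus the HD-het change was -3.81 on the log2 scale (SE 0.22, edgeR adjusted p = 5.2e-08).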

How the results depend on the processing

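Of 299 values of the 6 tested genes under all settings other than the 2 stricter limits for a call, 283 kept their direction and their side of the threshold, 13 newly passed it, 1 lost its call and 2 turned direction. Bdnf, Ntrk3 and Sort1 kept their calls against control cells under every alternative that could be fitted, except that Bdnf in both and Sort1 in HD-het cells fall short of a log2 change of at least 1. Rcor1 between the HD lines misses that limit and also an adjusted p under 0.01. Ntrk2 and Ntrk3 could not be fitted with at least 10 counts in every library, nor Ntrk3 in HD-het against control cells with 2 lines only. The log2 fold changes against control lay between 0.75 and 0.84 (HD-het) and 0.84 and 1.07 (HD-homo) for Bdnf, between 0.82 and 1.03 and between -3.36 and -2.66 for Sort1, and between 2.61 and 6.65 and between 5.68 and 9.90 for Ntrk3, lowest with a prior count of 2. Ntrk2 between the HD lines, 0.02 and not called, ranged from -0.26 to 0.26 with 1 library left out and turned to -0.26 without HD-het replicate 3 (edgeR adjusted p = 0.441) and to -0.01 without HD-homo replicate 3 (edgeR adjusted p = 0.987). Rest in HD-homo against control cells also passed with DESeq2 (0.31, DESeq2 adjusted p = 0.0398) and with no filter (0.31, edgeR adjusted p = 0.0492), with adjusted p from 0.0268 to 0.252 over its alternatives. Rcor1 in HD-het against control cells also passed with at least 10 counts in every library (edgeR adjusted p = 0.0495) and with 2 lines only (edgeR adjusted p = 0.0388). The cause was not tested. With a log2 change of at least 1, 2574 genes were called in HD-homo against control, 2490 in HD-het against control and 3285 between the HD lines, and of the 8 genes 1 was called in HD-het against control, since fewer genes meet both limits. Under every other setting the counts of called genes stayed within 1.5 times. List counts without HD-homo replicate 2, a setting chosen after seeing the data, also stayed within 1.5 times.

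The main fit did not pair the samples by replicate number, although same-numbered libraries shared a small part of their spread. Correlations of same-numbered deviations from the line means lay between 0.0226 and 0.0398 for HD-homo and control, between 0.0682 and 0.245 for HD-het and control and between 0.0322 and 0.202 for the HD lines, and 6, 5 and 4 of 6 libraries correlated best with their own number. With the replicate block, 8372, 9160 and 9938 genes were called in place of 7910, 8797 and 9666 in HD-homo against control, HD-het against control and HD-homo against HD-het, and Rest in HD-homo (0.30, edgeR adjusted p = 0.0375) and Rcor1 in HD-het cells (0.21, edgeR adjusted p = 0.0188) passed against control.

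Depth limits Ntrk2, Ntrk3, Ngfr and Ntf3: 3 counts correspond to 0.0710 to 0.101 CPM.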
